A study of Mus musculus with 27 samples.

Results

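The immunity-related GTPases (IRG) are followed here through 7 mouse genes, Igtp, Irgm1, Irgm2, Iigp1, Tgtp1, Tgtp2 and Ifi47. They were listed by gene symbol, and all 7 were found among the 55367 symbols of each count table. The counts come from 27 RNA-seq libraries of 2 experiments, with 3 libraries in each of 9 groups. The ganglion experiment holds 15 bulk libraries of lumbar L4-L5 dorsal root ganglia: wild type after sham surgery, wild type after sciatic nerve injury, Ptpn2 KO (knockout) after sham surgery, Ptpn2 KO after sciatic nerve injury, and injured wild type with the cGAS inhibitor RU521 injected into the sciatic nerve. The retinal experiment holds 12 libraries of picked retinal ganglion cells from Ptpn2 flox mice, all after optic nerve injury. Every eye of that experiment had an AAV vector 2 weeks before injury, carrying Cre (labelled Ptpn2 KO) or GFP (labelled wild type), and PBS or interferon gamma (IFNγ) right after injury. The labels give 3 days for the ganglia and 3 days after injury for the retinal cells. The Cre driver of the ganglion knockout, the promoter of the vectors, the age of the mice and the number of cells in a retinal library were not found in the labels.

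IRG proteins are large GTPases that vertebrate cells make after interferon stimulation and that act in defence against parasites and bacteria living in vacuoles. In mice they fall into regulators, which sit on the cell's own membranes and hold the others inactive, and effectors, which gather on the vacuole of the invader and break it. IFNγ reaches these genes through its receptor and the kinases JAK1 and JAK2, and PTPN2 is a phosphatase that removes phosphate from JAK1. Igtp (also called Irgm3), Irgm1 and Irgm2 encode regulators, while Iigp1 (Irga6), Tgtp1 and Tgtp2 (Irgb6) and Ifi47 (Irgd) encode effectors.

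Of the 7 genes, 6 lie on chromosome 11 (GRCm38, from the gene positions in the ganglion table). Igtp (58199556 to 58207591, plus strand) and Irgm2 (58199618 to 58222782, plus strand) share 162 bp of exon, which is 8.01% of the exon length of Igtp and 4.39% of that of Irgm2. Irgm1 (48861968 to 48871683, minus strand), Tgtp1 (48985327 to 48994172, minus strand), Tgtp2 (49057194 to 49064206, minus strand) and Ifi47 (49076587 to 49096974, plus strand) form the other cluster. Tgtp1 and Tgtp2 are near-identical copies: 73.1% of the 100-base windows of Tgtp1 transcripts occur in another gene, and 76.8% of those of Tgtp2 occur in Tgtp1. Reads of this pair cannot be told apart over most of their length, so their separate levels are uncertain and their sum is given as well. The same share was 5.16% for Igtp, 3.01% for Irgm2, 0.842% for Ifi47, and 0% for Irgm1 and Iigp1.

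The start sites are shown because the interferon response is read from short promoter motifs and these genes moved together. RefSeq promoters (GRCm38.p6) were matched by symbol for 6 of the 7 genes, with a single start per gene. In Irgm1, Irgm2 and Tgtp1 that start lies inside the gene span given above, and windows at any other start were not searched. Each line gives the 100 bases before the start, 5′ to 3′ on the gene's strand, with matches to the interferon gamma motif GAS (TTCNNNGAA) and the interferon motif ISRE (GAAANNGAAA) in capitals. Both strands were searched, from 250 bases before to 50 bases after the start.
Igtp (chr11:58199456-58199555, plus strand): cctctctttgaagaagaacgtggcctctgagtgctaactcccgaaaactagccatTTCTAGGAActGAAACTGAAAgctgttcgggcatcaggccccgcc
Irgm1 (chr11:48871421-48871520, minus strand): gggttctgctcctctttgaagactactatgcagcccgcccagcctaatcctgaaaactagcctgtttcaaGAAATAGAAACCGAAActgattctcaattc
Irgm2 (chr11:58214877-58214976, plus strand): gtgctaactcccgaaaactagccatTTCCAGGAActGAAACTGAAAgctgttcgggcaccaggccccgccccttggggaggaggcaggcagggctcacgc
Tgtp1 (chr11:48992247-48992346, minus strand): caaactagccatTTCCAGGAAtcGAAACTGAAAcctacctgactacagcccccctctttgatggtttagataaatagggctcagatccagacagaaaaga
Tgtp2 (chr11:49064213-49064312, minus strand): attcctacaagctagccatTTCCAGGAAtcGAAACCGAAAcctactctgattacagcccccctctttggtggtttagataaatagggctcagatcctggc
Ifi47 (chr11:49076487-49076586, plus strand): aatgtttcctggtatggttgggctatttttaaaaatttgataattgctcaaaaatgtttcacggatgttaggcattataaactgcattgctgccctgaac
Igtp, Irgm2, Tgtp1 and Tgtp2 each hold a GAS match followed, after a gap of 2 bases, by an ISRE match on the gene's strand. The GAS match lies at -45 to -37 in Igtp, -75 to -67 in Irgm2, -88 to -80 in Tgtp1 and -81 to -73 in Tgtp2. That joined pattern was found in 5 of 32851 promoter windows (0.0152%), those of the 4 genes and of Gm12185, a neighbouring IRG family symbol. The gap searched was the one seen in these genes, so the count is a description and no test of rarity. The bases around the matches are nearly alike in Igtp and Irgm2, and in Tgtp1 and Tgtp2, so the matches are not independent. Irgm1 has 2 overlapping ISRE matches, at -30 to -21 and -24 to -15, and no GAS match, and Ifi47 has neither in its window. Of all windows 8.3% hold a GAS match, 3.44% an ISRE match and 0.454% both. A match is a description of the letters and not a measured binding site.

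Ganglion libraries held 14813365 to 22414750 counts and retinal libraries 13239988 to 17122057. Levels are CPM, the counts of a gene relative to its library's TMM-scaled total, and under 3 counts per library (0.131 to 0.208 CPM in ganglia, 0.168 to 0.287 CPM in retinal cells) a gene was taken as not detected; such floors cover counting error only. Tests are edgeR's quasi-likelihood test with Benjamini-Hochberg adjustment over all genes of an experiment, called at an adjusted p under 0.05, and differences are log2 fold changes ± SE. Nothing in the labels says that replicates are separate animals, so p-values measure only the spread between these libraries. All 11 sensory neuron markers had counts in every ganglion group and all 11 retinal ganglion cell markers in every retinal group. In single retinal libraries up to 2 of the 11 were at 0 (knockout PBS replicate 3). Wild-type sham replicates 1 and 3 stood apart from replicate 2, with 26235 and 26802 against 34115 detected genes and 4.87% and 6.52% against 15.2% mitochondrial counts. The targeted gene Ptpn2 stood at 10.5 to 26.5 CPM in knockout and 11.6 to 19.8 CPM in wild-type ganglion libraries, and at 0 to 23.9 and 0 to 14.1 CPM in retinal ones. Reads from every exon are summed per gene, so these levels are no check of a deletion, and genotype is taken from the labels.

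In the ganglia, all 7 IRG genes were far higher in injured Ptpn2 knockout than in any other group. Their summed level was 1074 ± 156 CPM (SD, n = 3) there, against 81.1 ± 3.91 CPM in sham wild type, 109.8 ± 7.30 CPM in injured wild type, 113 ± 17.6 CPM in sham knockout and 82.6 ± 15.1 CPM with RU521. For every gene the lowest injured knockout library was above the highest of the 12 others, by 3.67 times for Irgm2, 6.82 to 7.21 times for Tgtp2, Ifi47, Irgm1 and Igtp, 9.55 times for Tgtp1 and 11.4 times for Iigp1. The share of all genes that lie apart over this split was not counted. Because these are bulk libraries, fewer cells of a type and less RNA per cell cannot be told apart.

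**Figure D1:**
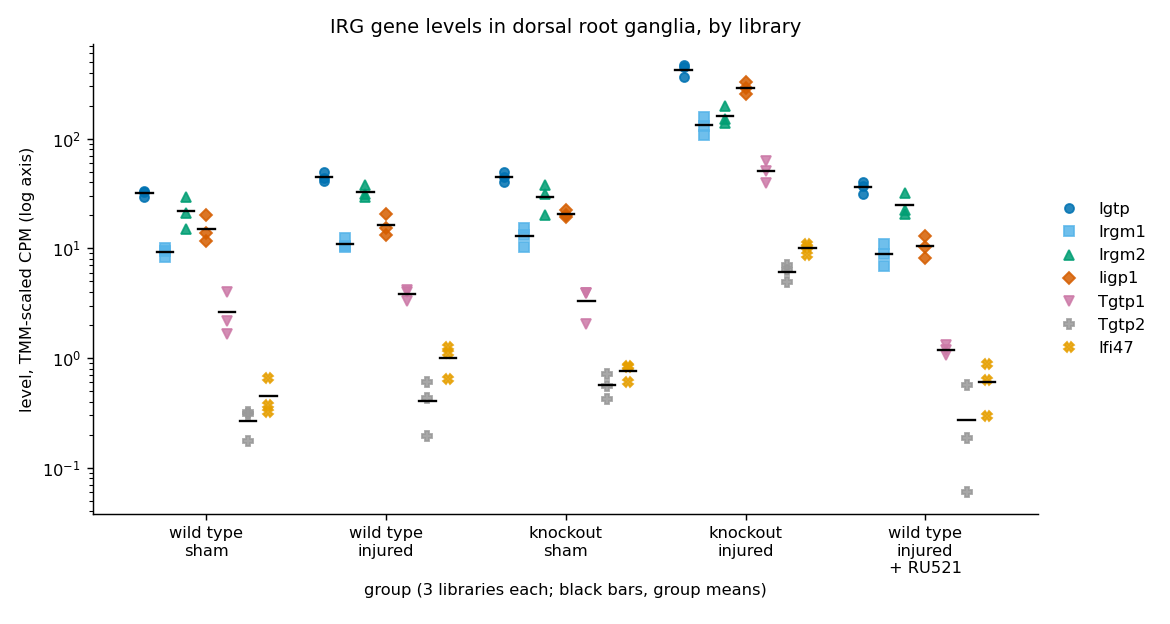
Level of each IRG gene in each dorsal root ganglion library (TMM-scaled CPM, log axis), by group. Points are the 3 libraries of a group and black bars are their means. All 7 genes stand highest in injured Ptpn2 knockout, where Igtp reached 360.4 to 465 CPM.

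Among the regulators, Igtp had the highest level. It stood at 33.4, 32.4 and 29.3 CPM in sham wild type, 43.3, 49.9 and 40.7 CPM in injured wild type, and 40.4, 49.96 and 44.3 CPM in sham knockout. In injured knockout its libraries held 465, 446 and 360.4 CPM, and with RU521 31.1, 40.4 and 37.0 CPM. The 3 injured knockout libraries lay apart from all others, and sham wild type lay below injured wild type and sham knockout without overlap. Irgm1, whose protein also regulates autophagy, stood at 8.28, 10.1 and 9.35 CPM in sham wild type, 10.6, 12.3 and 10.2 CPM in injured wild type, and 10.3, 13.1 and 15.4 CPM in sham knockout. Its injured knockout libraries held 157, 131 and 108 CPM, and those with RU521 6.95, 11.0 and 8.95 CPM. Outside injured knockout the 12 libraries of Irgm1 ranged from 6.95 to 15.4 CPM. Irgm2 stood at 21.04, 14.9 and 29.0 CPM in sham wild type, 29.4, 37.5 and 31.1 CPM in injured wild type, and 20.3, 37.3 and 31.3 CPM in sham knockout. It held 197, 151 and 138 CPM in injured knockout and 20.7, 31.6 and 22.5 CPM with RU521. Sham and injured libraries of the wild type did not overlap for Irgm2, but the highest sham library (29.0 CPM) nearly reached the lowest injured one (29.4 CPM). The SD in sham was 7.06 CPM around 21.7 CPM.

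Among the effectors, Iigp1, which loads onto parasite vacuoles, had the highest level. It is the only one of the 7 outside chromosome 11 (chromosome 18, 60376027 to 60392634, plus strand, GRCm38). Its libraries held 11.6, 19.9 and 13.8 CPM in sham wild type, 15.3, 13.1 and 20.5 CPM in injured wild type, and 19.4, 22.2 and 20.2 CPM in sham knockout. In injured knockout they held 325, 292 and 253 CPM, and with RU521 8.14, 13.1 and 10.2 CPM. Sham and injured wild type overlapped for this gene. Tgtp1 stood at 1.66, 3.98 and 2.19 CPM in sham wild type, 4.03, 3.31 and 4.13 CPM in injured wild type, and 2.03, 3.94 and 3.88 CPM in sham knockout. Its injured knockout libraries held 62.0, 50.2 and 39.4 CPM, and those with RU521 1.19, 1.32 and 1.06 CPM. The RU521 libraries of Tgtp1 lay below all other ganglion libraries, a split over which the share of all genes was not counted. Its copy Tgtp2 was near the floor outside injured knockout, at 0.0594 to 0.717 CPM in those 12 libraries, and stood at 6.39, 7.03 and 4.89 CPM in injured knockout. Ifi47 ranged from 0.297 to 1.27 CPM over the 12 other libraries and held 11.0, 10.2 and 8.73 CPM in injured knockout. Both genes were low throughout, and their injured knockout libraries still lay apart from all others.

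The family can be compared between genes only per exon length. In injured knockout, Igtp stood at 209.6 ± 27.6 CPM per kb, Iigp1 at 49.8 ± 6.22, Irgm2 at 43.9 ± 8.38, Irgm1 at 22.7 ± 4.24, Tgtp1 at 15.8 ± 3.53, Ifi47 at 4.03 ± 0.469 and Tgtp2 at 2.08 ± 0.373 CPM per kb (SD, n = 3). Libraries of neighbours in that order overlapped for Iigp1 with Irgm2 and for Irgm1 with Tgtp1. Reads common to Tgtp1 and Tgtp2 may have been lost or split in counting. The places and shares of both genes are therefore uncertain and may be too low, and summing the pair would not recover lost reads. Igtp made up 58.5% to 62.6% of the summed level per kb as group means in all 5 ganglion groups. Among the other genes, the share of Irgm2 in injured knockout lay below that in sham knockout, with 12.6% ± 1.04 against 21.1% ± 3.29, while Iigp1 lay above it, with 14.3% ± 0.332 against 9.52% ± 0.914. Tgtp1 (4.499% against 2.69%) and Ifi47 (1.16% against 0.813%) also lay above sham knockout without overlap. An exact two-sided permutation test gave p = 0.1 for each of these 4 shares, the smallest that 3 against 3 libraries allow (adjusted p = 0.175 over the 7 genes). The shares of Igtp, Irgm1 and Tgtp2 overlapped.

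**Figure D2:**
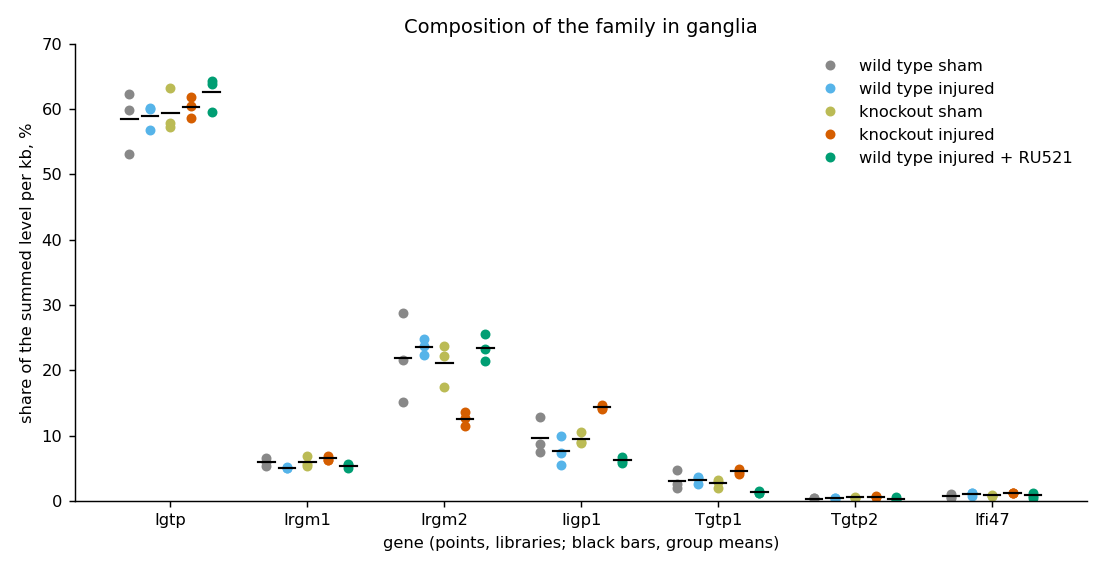
Share of each IRG gene in the summed level per kb of exon (percent) in each dorsal root ganglion library, by group. Points are libraries and black bars are group means of 3. Igtp holds 58.5% to 62.6% as a group mean in every group, and in injured knockout Irgm2 holds 12.6% and Iigp1 14.3%.

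The first comparison asks what sciatic nerve injury does in wild-type ganglia. Of the 7 genes 1 was called, Igtp, which rose 1.41-fold (0.49 ± 0.14, adjusted p = 0.029), against 16.6% of all 18517 genes called and 8.6% called higher. The other values were 0.26 ± 0.20 for Irgm1, 0.59 ± 0.25 for Irgm2, 0.11 ± 0.22 for Iigp1, 0.57 ± 0.32 for Tgtp1, 0.63 ± 0.62 for Tgtp2 and 1.13 ± 0.43 for Ifi47, none of them past the threshold. Libraries did not overlap for Igtp, Irgm1 and Irgm2, as for 17.5% of all genes in that direction. The call of Igtp was lost without wild-type sham replicate 1 (0.52) or 3 (0.44), or without wild-type injured replicate 1 (0.50), 2 (0.40) or 3 (0.55). Of all genes those fits called 8.29%, 6.37%, 11.1%, 6.74% and 7.19% in that order, against 16.6% with all libraries. Without wild-type sham replicate 2 Tgtp1 was called (0.98), where 33.9% of all genes were. Without wild-type sham replicates 1 and 3, the pair that stood apart, Irgm2 was called (1.17), Igtp was not (0.51), and Iigp1 (-0.25) and Tgtp1 (-0.02) turned negative. Macrophage and microglia markers moved with injury, 12 of 14 called higher, with a summed level of 370 to 1116 CPM in sham and 2680 to 2819 CPM in injured wild type. Of the neutrophil markers 7 of 7 were higher (412 to 1476 against 3142 to 4161 CPM), as were 3 of 6 Schwann cell markers, and 8 of 11 sensory neuron markers were lower. The part of these cell types in the IRG values was not tested.

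In Ptpn2 knockout ganglia, injury raised every one of the 7 genes. The regulators Igtp, Irgm1 and Irgm2 rose 9.44-fold (3.24 ± 0.15), 10.2-fold (3.35 ± 0.21) and 5.46-fold (2.45 ± 0.26). The effectors Iigp1, Tgtp1, Tgtp2 and Ifi47 rose 14.1-fold (3.81 ± 0.23), 15.4-fold (3.94 ± 0.32), 10.8-fold (3.42 ± 0.54) and 13.2-fold (3.71 ± 0.41). The edgeR adjusted p ranged from 7.25e-09 for Igtp to 0.00102 for Tgtp2, and of all genes 10.9% were called and 6.34% were called higher. No library overlapped between the groups for any of the 7, as for 19.7% of all genes in that direction. Tgtp1 and Tgtp2 summed to 1 gene rose by 3.88 ± 0.32. Of 14 macrophage markers 10 were called higher here, with sums of 728 to 1026 CPM in sham and 2913 to 3234 CPM in injured knockout, and 3 of 10 T and NK cell markers. Of the neutrophil markers 4 of 7 were higher (1259 to 1802 against 3784 to 3922 CPM) and 5 of 11 sensory neuron markers were lower. The part of these cell types in the IRG values was not tested.

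Between sham genotypes edgeR called 0 of the 7 genes, with 2 at an unadjusted p under 0.05, where 0.135% of all genes were called. DESeq2 called 0 and limma-voom called 2, Igtp and Iigp1, where it called 16.2% of all genes. All 7 values were positive, from 0.35 ± 0.32 for Tgtp1 to 1.07 ± 0.60 for Tgtp2, with Igtp at 0.50 ± 0.14 (adjusted p = 0.224) and Irgm1 at 0.48 ± 0.20. The knockout libraries lay above those of wild type without overlap for Igtp, Irgm1 and Tgtp2, as for 6.65% of all genes in that direction. Without both sham wild-type libraries that stood apart, Tgtp1 turned to -0.25.

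In injured ganglia the knockout exceeded wild type for all 7 genes, in libraries that did not overlap (16% of all genes in that direction). Of all genes 2.2% were called, 1.39% higher. Iigp1 had the largest difference of the family, 17.8-fold (4.15 ± 0.24), and Irgm2 the smallest, 4.96-fold (2.31 ± 0.26). Between them lay Tgtp2 (3.86 ± 0.56), Tgtp1 (3.72 ± 0.32), Irgm1 (3.58 ± 0.21), Ifi47 (3.30 ± 0.40) and Igtp (3.25 ± 0.15). Adjusted p ranged from 7.00e-09 for Igtp to 0.000941 for Tgtp2. All 7 calls were kept without each library in turn and by DESeq2 and limma-voom, which called 4.54% and 11.3% of all genes. This comparison shares its injured knockout libraries with the injury comparison in the knockout, so the values of both are given side by side and not as separate evidence.

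Marker genes of other cell types are given beside this comparison. Macrophage and microglia markers summed to 2680 to 2819 CPM in injured wild type and 2913 to 3234 CPM in injured knockout, and 1 of 14 was called higher, Aif1 (1.82 ± 0.42). T and NK cell markers summed to 19.2 to 27.0 CPM and 38.7 to 68.5 CPM, with 1 of 10 called higher, the granzyme Gzmb (3.72 ± 0.78). Neutrophil markers had 0 of 7 called, and 2 of 6 Schwann cell markers were lower, Pmp22 (-1.08 ± 0.15) and Mbp (-1.08 ± 0.27). Macrophages, T cells and NK cells can themselves express IRG genes, and their part in the difference was not tested.

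The interaction asks whether injury acted differently in the genotypes. It was called for 5 of 7 genes, against 0.448% of all genes (0.308% higher): Igtp (2.75 ± 0.20), Irgm1 (3.10 ± 0.28), Irgm2 (1.86 ± 0.36), Iigp1 (3.70 ± 0.31) and Tgtp1 (3.38 ± 0.44). Adjusted p was 9.79e-06 for Igtp and 0.0332 for Irgm2 by edgeR. Tgtp2 (2.79 ± 0.83, adjusted p = 0.224) and Ifi47 (2.58 ± 0.59, adjusted p = 0.074) were not called by edgeR. DESeq2 called 6 of the 7 genes, Ifi47 added (1.8% of all genes), and limma-voom all 7 (10.8% of all genes), and over all alternatives 4 to 7 were called. Irgm2 lost its call when 1 library was left out in 10 of 15 cases, namely wild-type sham replicate 1 (1.87) or 3 (1.59), wild-type injured replicate 1 (1.78), 2 (1.96) or 3 (1.83), knockout sham replicate 1 (1.65) or 3 (1.89), knockout injured replicate 1 (1.68) or 2 (1.91), or RU521 replicate 3 (1.86). Without wild-type sham replicates 1 and 3 together it gave 1.28 (adjusted p = 0.0624). Ifi47 gained one without wild-type sham replicate 2 (2.68) or RU521 replicate 1 (2.59).

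**Figure D3:**
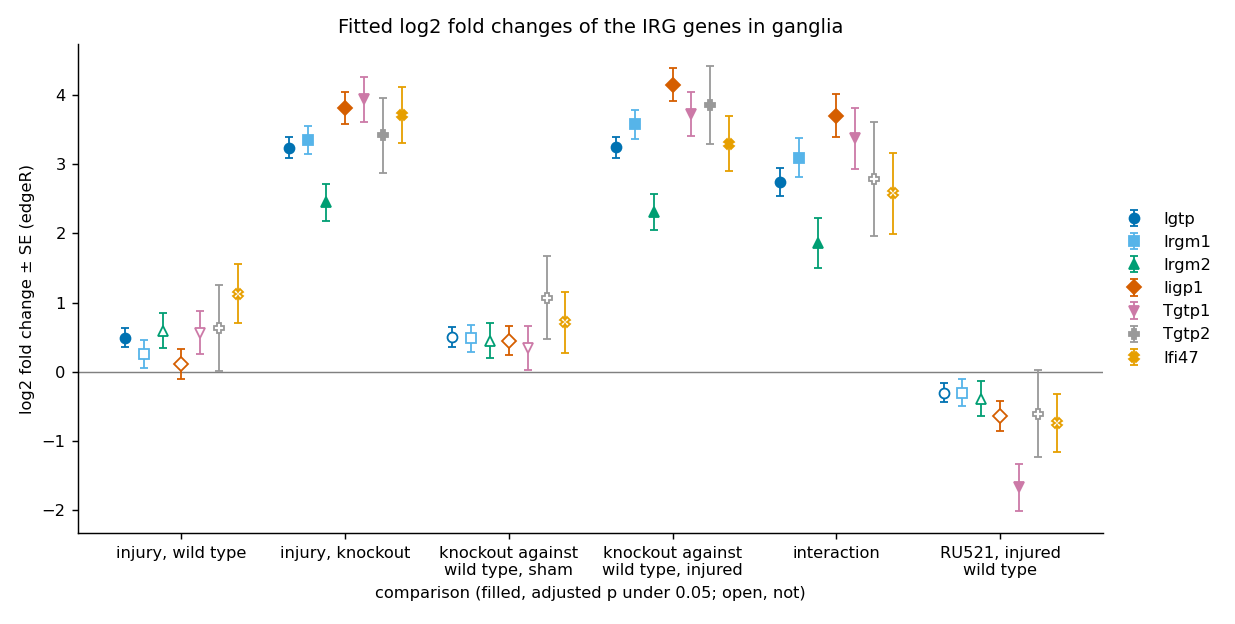
Fitted log2 fold change ± SE (edgeR) of each IRG gene in the 6 ganglion comparisons. Filled symbols passed an adjusted p under 0.05 and open symbols did not. All 7 genes are filled for injury in the knockout and for knockout against wild type after injury, 5 for the interaction, 1 each for injury in wild type and for RU521, and 0 for the sham comparison.

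RU521, which blocks the DNA sensor cGAS, was tested in injured wild type. Tgtp1 fell to 0.312 of its level without the inhibitor (-1.67 ± 0.34, adjusted p = 0.00836), in libraries that did not overlap, and 9.58% of all genes were called, 4.48% lower. The sum of Tgtp1 and Tgtp2 gave -1.53 ± 0.33 (adjusted p = 0.0115), and Tgtp2 alone, with 1 to 11 counts per library in these groups, gave -0.61 ± 0.63. The other 5 values were also negative but did not pass: Igtp -0.30 ± 0.14, Irgm1 -0.30 ± 0.20, Irgm2 -0.39 ± 0.25, Iigp1 -0.64 ± 0.22 and Ifi47 -0.74 ± 0.42. Igtp, Iigp1 and Tgtp1 did not overlap in that direction, as for 16.9% of all genes. Iigp1 was called by DESeq2 and limma-voom, which called 18.5% and 33.4% of all genes. edgeR called it without wild-type sham replicate 2 (-0.63, 18% of all genes) or RU521 replicate 2 (-0.83, 14.1%).

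The makeup of the ganglion libraries differed with RU521 as well. Of 11 sensory neuron markers 6 were called higher, all 6 Schwann cell markers lower, 3 of 14 macrophage markers lower (Mrc1, Cx3cr1 and Adgre1) and 2 of 5 endothelial markers lower. Macrophage markers summed to 1066 to 3225 CPM with RU521, a range that overlaps 2680 to 2819 CPM without it. RU521 replicate 1, the lowest of its group for 6 of the 7 IRG genes, had 7.83% mitochondrial counts against 15.5% and 11.3%. The part of these shifts in the Tgtp1 value was not tested.

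Within both knockout groups and the RU521 group of the ganglia, 1 library tended to be lowest for most IRG genes. Injured knockout replicate 1 was the highest of its group for 6 of 7 genes and replicate 3 the lowest for 7 of 7, and sham knockout replicate 1 was the lowest for 7 of 7. In wild-type sham and injured groups the lowest library differed between genes, with no replicate lowest for more than 4. Likeness to the family mean over the 15 ganglion libraries was measured as a description. It was the Pearson r of log2(CPM + 1) against the members' mean of centred log2 values. Predicted genes with Gm, Rik or clone symbols were left out, so IRG family symbols of that kind could not appear. Among the other tested genes outside the 7, those most alike were all guanylate-binding proteins. They were Gbp7 (r = 0.995), Gbp2 (0.994), Gbp6 (0.992), Gbp4 (0.990), Gbp3 (0.988) and Gbp10 (0.986). The 15 points share the injured knockout group, which carries most of the spread.

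Other genes of the pathway are given as counts for knockout against wild type after injury, where 2.2% of all genes were called. Of 12 tested IFNγ signalling genes 5 were higher, among them Irf1 (1.38 ± 0.21), an interferon-induced transcription factor, and Nlrc5 (2.29 ± 0.36), the activator of MHC class I genes. The median of that list was 0.57. Ifng itself was close to absent, with 13 counts in all injured knockout libraries, 6 in injured wild type, 5 and 1 in sham wild type and knockout, and 0 with RU521. All 11 guanylate-binding proteins, which attack the same vacuoles, were higher (median 3.94), and the smallest p-values belonged to Gbp2 (4.42 ± 0.24), Gbp7 (2.72 ± 0.17) and Gbp9 (2.90 ± 0.22). Of 9 tested other IRG family symbols 5 were higher (median 2.43), with Gm4951 at 3.95 ± 0.34, Gm12250 at 4.402 ± 0.43 and F830016B08Rik at 4.22 ± 0.59. Genes of ATG8 conjugation, the autophagy machinery that directs IRG proteins to vacuoles, gave 0 of 13 calls in either direction (median 0.10). The highest of them, Map1lc3b and Gabarapl1, stood at 1225 ± 62.5 and 658 ± 33.2 CPM in injured knockout.

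In the other ganglion comparisons these lists were called as follows. With injury in the knockout 7 of 12 IFNγ signalling genes, 11 of 11 guanylate-binding proteins, 7 of 9 other IRG symbols and 0 of 13 ATG8 genes rose, against 6.34% of all genes. With injury in wild type 3 of 12, 1 of 11, 0 of 9 and 0 of 13 rose, against 8.6% of all genes, and 1 ATG8 gene fell. Between sham genotypes 0 were called in each list. The interaction was called higher for 2 of 12, 8 of 11, 3 of 9 and 0 of 13, against 0.308% of all genes. With RU521 Gbp9 fell (-1.14 ± 0.22), as did Gm12185, a symbol that overlaps Tgtp1 by 223 bp of exon and had 24 counts over injured wild type and 0 with RU521, and 0 genes of the IFNγ signalling and ATG8 lists were called.

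In retinal ganglion cells 1 knockout library stood apart before any IRG gene is considered. Knockout PBS replicate 2 held 2822 CPM of summed macrophage and microglia markers, with 13 of 14 of them above 0, against 5.57 to 199 CPM in the other 11 libraries. Its markers of Müller glia and astrocytes summed to 2043 CPM against 39.6 to 739 CPM. It was the highest library of its group for all 7 IRG genes. Folds, bounds and family shares of that group are given with and without it, while the genotype difference of the IFNγ effects is given only with it. Retinal ganglion cell markers summed to 3088 CPM in it and to 3214 to 7330 CPM in the others.

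The retinal knockout libraries held far more IRG transcript than those of wild type. The 7 genes summed to 1.82, 10.4 and 0.221 CPM in wild type with PBS and to 5.64, 24.98 and 22.0 CPM in wild type with IFNγ. In the knockout they summed to 296, 691 and 74.8 CPM with PBS and to 377, 232 and 297 CPM with IFNγ. The lowest knockout library was thus above the highest wild-type library, also without knockout PBS replicate 2. Of the 7 genes, 1, 2 and 0 were detected in the wild-type PBS libraries and 1, 4 and 2 in those with IFNγ, against 3, 6 and 3 in knockout PBS and 6, 4 and 6 in knockout with IFNγ.

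**Figure D4:**
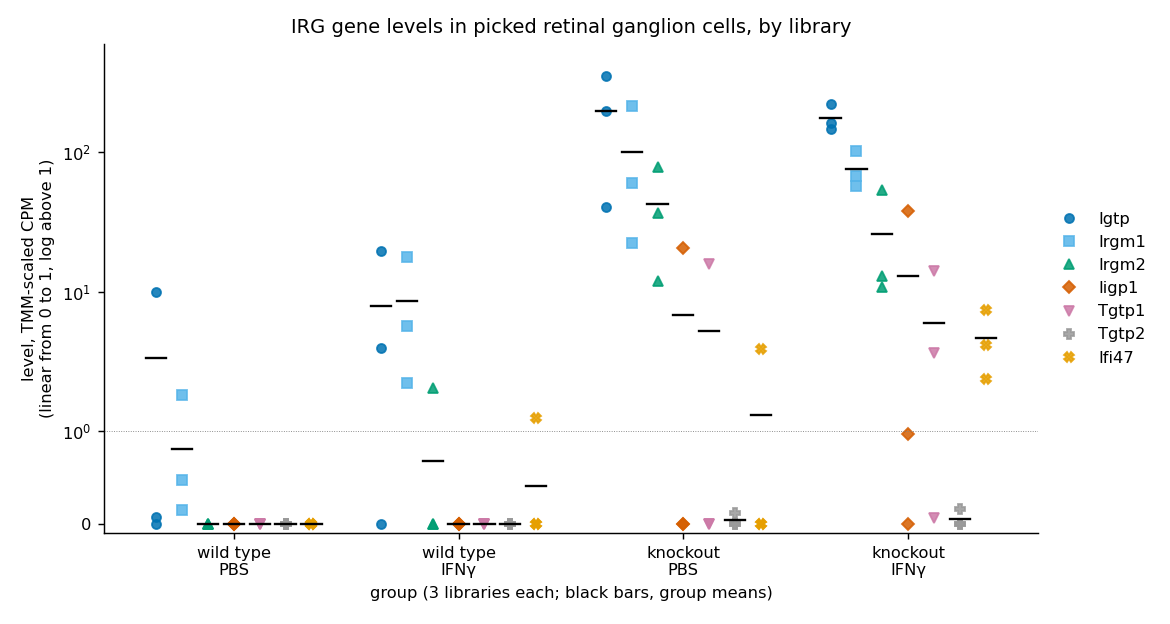
Level of each IRG gene in each retinal ganglion cell library (TMM-scaled CPM, linear from 0 to 1 and logarithmic above 1), by group. Points are the 3 libraries of a group and black bars are their means. Igtp and Irgm1 lie at or above 22.5 CPM in all 6 knockout libraries and at or below 19.8 CPM in all 6 wild-type libraries.

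The regulators made up most of this. Igtp stood at 0, 9.90 and 0.0738 CPM in wild type with PBS, 0, 3.97 and 19.8 CPM in wild type with IFNγ, 199, 356 and 40.3 CPM in knockout with PBS, and 161, 147 and 222 CPM in knockout with IFNγ. Irgm1 stood at 1.82, 0.469 and 0.148 CPM, then 5.64, 17.7 and 2.23 CPM, 60.7, 217 and 22.5 CPM, and 102, 67.8 and 57.6 CPM in the same order. Irgm2 had 0 counts in all wild-type libraries except 1 (2.03 CPM, IFNγ replicate 2) and stood at 36.8, 78.2 and 11.95 CPM in knockout with PBS and 54.1, 13.1 and 10.9 CPM in knockout with IFNγ. For these 3 genes no knockout library overlapped a wild-type library. The share of all genes that lie apart between all knockout and all wild-type libraries was not counted.

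The effectors were found in fewer libraries. Iigp1 had 0 counts in all 6 wild-type libraries, 20.6 CPM in knockout PBS replicate 2 and 0 in the other 2 of that group, and 38.2, 0 and 0.969 CPM in knockout with IFNγ. Tgtp1 had 0 counts in wild type, 15.7 CPM in knockout PBS replicate 2 alone of its group, and 14.2, 0.0643 and 3.63 CPM in knockout with IFNγ. Ifi47 was at 1.24 CPM in 1 wild-type library with IFNγ, at 3.91 CPM in knockout PBS replicate 2 alone, and at 7.37, 4.18 and 2.36 CPM in knockout with IFNγ. Tgtp2 stayed at or under 2 counts in every retinal library and was not tested. Without knockout PBS replicate 2, none of the 4 effector genes had a count in knockout with PBS, while in knockout with IFNγ Ifi47 was detected in 3 of 3 libraries and Iigp1 and Tgtp1 in 2 of 3.

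With PBS, the knockout exceeded wild type 59.6-fold for Igtp (5.87 ± 1.88, adjusted p = 0.463) and 123-fold for Irgm1 (6.97 ± 1.21, adjusted p = 0.0711), and Irgm2 was at least 186-fold higher, against a floor of 3 counts per library. None of the 6 tested genes was called by edgeR (0 called, 4 at an unadjusted p under 0.05), where 0.0222% of 13487 genes were called. DESeq2 called 3, where it called 4.2% of all genes, and limma-voom 0 (0.0222%). Libraries did not overlap for Igtp, Irgm1 and Irgm2, as for 5.12% of all genes in that direction. Without knockout PBS replicate 2 the fit gave 5.09 for Igtp and 5.66 for Irgm1 (adjusted p = 0.113), and the 3 genes still did not overlap; the fold of means became 35.9 for Igtp and 51.3 for Irgm1, and the bound of Irgm2 107. Wild-type PBS replicate 2 held 169 of the 170 Igtp counts of its group, and without it the fitted value of Igtp was 11.98, which then rests on 1 count. Over the libraries left out in turn Irgm1 ranged from 5.66 to 8.27. Without knockout PBS replicate 3 edgeR called Irgm1 (7.44, adjusted p = 0.0315) and 0.0741% of all genes.

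With IFNγ in both genotypes, the knockout exceeded wild type 22.3-fold for Igtp (4.48 ± 1.75), 8.87-fold for Irgm1 (3.15 ± 1.002) and 38.5-fold for Irgm2 (5.28 ± 1.85), each with an edgeR adjusted p of 0.913. Iigp1 was at least 62.7-fold and Tgtp1 at least 28.6-fold higher, and Ifi47 was 11.3-fold higher (3.48 ± 3.14). Knockout IFNγ replicate 1 was the highest of its group for Irgm2, Iigp1, Tgtp1 and Ifi47, and without it the bounds became 2.32 for Iigp1 and 8.87 for Tgtp1, and the folds 17.7 for Irgm2 and 7.94 for Ifi47. With each library left out in turn the fit ranged from 3.88 to 6.50 for Igtp, 2.70 to 4.27 for Irgm1, 4.16 to 11.66 for Irgm2 and 2.89 to 9.17 for Ifi47, the highest without wild-type IFNγ replicate 3 for Igtp and 2 for the others. edgeR called 0 of 6 genes and 0% of all genes, and 5 of the 6 had an unadjusted p under 0.05. DESeq2 called 3, where it called 1.75% of all genes, and limma-voom 0 (0.0222%). Libraries of Igtp, Irgm1, Irgm2, Tgtp1 and Ifi47 did not overlap, as for 6.14% of all genes in that direction, although the lowest knockout library of Tgtp1 held 1 count. In knockout with IFNγ macrophage and microglia markers summed to 5.57 to 25.7 CPM, below every wild-type library, and 5 of the 14 (Ptprc, Itgam, Trem2, P2ry12 and Tmem119) were at 0 in all 3 libraries. Per library 8, 9 and 12 of the 14 were at 0 there, against 6 to 13 in the wild-type libraries. By group, more markers were at 0 in all 3 libraries of wild type, 10 of the 14 with PBS and 6 with IFNγ.

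**Figure D5:**
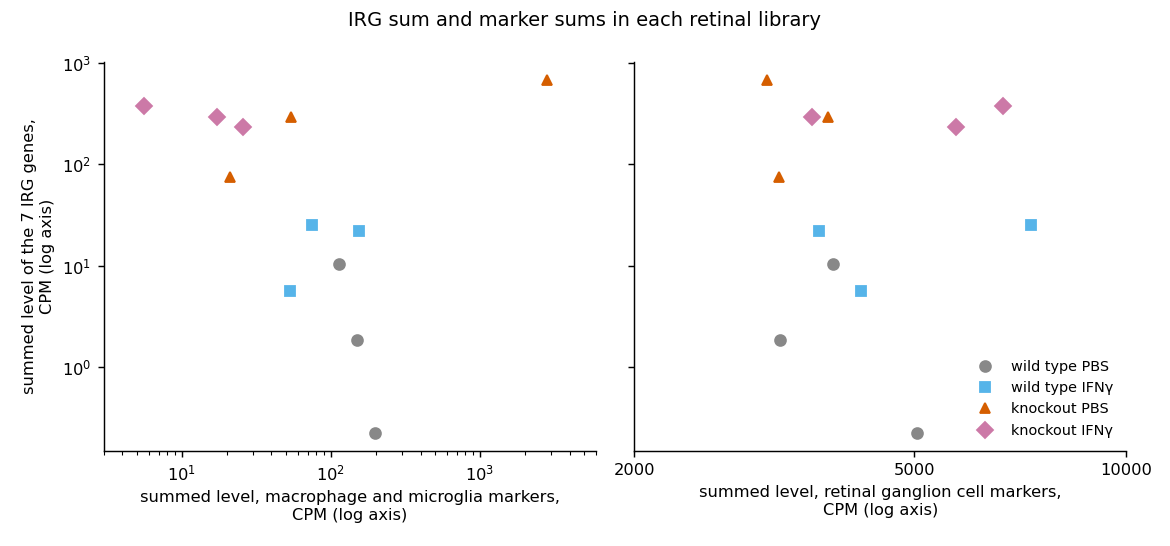
Summed level of the 7 IRG genes (vertical, CPM, log axis) in each of the 12 retinal libraries against the summed level of macrophage and microglia markers (left) and of retinal ganglion cell markers (right), both in CPM on log axes. Symbols mark the 4 groups. Knockout PBS replicate 2 stands alone at 2822 CPM of macrophage and microglia markers, and the other 5 knockout libraries lie above all wild-type libraries in IRG level at 5.57 to 54.0 CPM of those markers.

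The IFNγ comparisons within a genotype gave no call by edgeR. In wild type Irgm1 was the only gene of the 7 whose libraries did not overlap, at 8.54 ± 8.15 CPM with IFNγ against 0.811 ± 0.886 CPM with PBS (3.41 ± 1.04, adjusted p = 1); 5.02% of all genes lay apart in that direction. edgeR called 0 of 6 genes and 0% of all genes, with 2 at an unadjusted p under 0.05 (Irgm1 and Irgm2). DESeq2 called 1 (Irgm1), where it called 1.59% of all genes, and limma-voom 0 (0%). Igtp gave 1.23 ± 1.56, which turned to -0.79 without wild-type IFNγ replicate 3. In the knockout IFNγ gave -0.17 ± 1.52 for Igtp, -0.40 ± 0.92 for Irgm1 and -0.70 ± 1.53 for Irgm2. Without knockout PBS replicate 2 these became 0.60, 0.89 and 0.12. None of the 6 genes was called there by edgeR, DESeq2 or limma-voom, though Iigp1 had no adjusted p from DESeq2. In edgeR 0 had an unadjusted p under 0.05. Of all genes edgeR called 0%, DESeq2 2.47% and limma-voom 0.00741%.

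The difference of the IFNγ effects between genotypes was called by edgeR for 0 of 6 genes, with 0% of all genes called. At an unadjusted p under 0.05 were 2, Irgm1 (-3.81 ± 1.37) and Irgm2. DESeq2 and limma-voom called 0 of the 6, where they called 2.57% and 0.00741% of all genes. The knockout with IFNγ stood 53.1-fold above wild type with PBS for Igtp (5.71 ± 1.86) and 93.4-fold for Irgm1 (6.57 ± 1.19, adjusted p = 0.132). Irgm2 was at least 114-fold, Iigp1 at least 57.3-fold, Tgtp1 at least 26.1-fold and Ifi47 at least 20.3-fold higher. Without knockout IFNγ replicate 1 these bounds became 52.5, 2.12, 8.11 and 14.3, and without wild-type PBS replicate 2 the fitted value of Igtp was 11.81. edgeR called 0 of these 6 genes and 0.0519% of all genes, and all 6 had an unadjusted p under 0.05. DESeq2 called 3, where it called 2.72% of all genes, and limma-voom 0 (0.141%). Libraries did not overlap for 5 of them, all but Iigp1, as for 7.3% of all genes in that direction. The biological coefficient of variation was 1.27 in the retinal libraries and 0.262 in the ganglia.

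The makeup of the family can be set beside that of the ganglia. Per kb, Igtp held 76.2% and 77.4% of the summed IRG level in knockout retinal cells with PBS and with IFNγ, and 60.3% in injured knockout ganglia. Without knockout PBS replicate 2 the PBS share of Igtp was 78.2%. Iigp1 held 0.482% and 1.78% in those retinal groups and 14.3% in injured knockout ganglia, and its PBS share came from replicate 2 alone. The tables were scaled separately and no source used here names the annotation behind the retinal counts, so these shares are set side by side without a test.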

How the data were processed

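The deposited count tables hold whole-number read counts per gene symbol for 27 libraries. Per the file headers, the ganglion counts were made by the authors with featureCounts 2.0.1 on GRCm38 with Ensembl 101, from primary paired-end alignments with a mapping quality of at least 10, without strand. For the retinal counts no source used here names the counter or annotation. Per the labels' protocols, ganglion libraries were made with SMART-Seq v4 and Tn5 (paired 100 base reads) and retinal libraries from picked cells with Smart-seq2 (paired 150 base reads). The submitters' processing notes name Trim Galore and STAR, with no version. The deposited exon length in bp was used as the other unit, for CPM per kb. A last line without a gene name in the retinal table equals the column sums in 12 of 12 libraries (50% of the file total) and was left out. Reads of copies such as Tgtp1 and Tgtp2 could be lost or split by that mapping filter, which the tables do not show.

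Each experiment was fitted alone with edgeR 4.0.16 in R 4.3.3 (TMM, filterByExpr with a minimum count of 10 and a minimum total of 15, robust quasi-likelihood, Benjamini-Hochberg at 0.05), giving 18517 tested ganglion and 13487 retinal genes. All 7 IRG genes were tested in ganglia and 6 in the retina, where Tgtp2 missed the count filter. DESeq2 1.42.0, limma 3.58.1 (voom with sample quality weights), other filters and scalings, covariates, a replicate block, summed Tgtp1 and Tgtp2, and leaving out each library were tried. The code was tested on simulated data. Folds against a group at 0 counts are bounds from 3 counts per library. All 7 genes were named throughout. Also named were the 6 genes most alike over the ganglion libraries, with Gm, Rik and clone symbols left out. Other named genes were up to 3 called genes of each pathway list with the smallest p for knockout against wild type after injury (the 2 highest by level where none was called). One gene that this rule names is not reported here. The 7 genes, the pathway lists and the marker lists were chosen with earlier results of these data known.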

Additional observations from a re-analysis of the deposited data

Results flagged for a closer look

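Injury had a different effect in the 2 ganglion genotypes for 5 of the 7 IRG genes, by the interaction term of the edgeR fit (adjusted p under 0.05), which called 0.448% of all genes. DESeq2 called 6 of the 7 (1.8% of all genes) and limma-voom 7 (10.8%). The difference of the injury effects, knockout minus wild type, was 2.75 for Igtp, 3.10 for Irgm1, 1.86 for Irgm2, 3.70 for Iigp1 and 3.38 for Tgtp1 on the log2 scale. Irgm2 lost its call in 10 of the 15 fits that left out 1 library.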

How the results depend on the processing

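Over the alternatives, 948 of 993 ganglion values kept their direction and call, 20 lost a call, 17 gained one and 8 changed direction. Of 318 retinal values 298 kept both, 0 lost a call, 9 gained one and 11 changed direction. Retinal values were counted only where a fold could be given. Left out were genes set against a group at 0 counts and the genotype difference of the IFNγ effects. Calls gained by such genes are missing from the 9, while the numbers of IRG genes called below include them. The number of IRG genes called for injury in wild type (1) became 0 without a low count filter (7.31% of all genes called). It was also 0 with only the groups compared (9.98%) or with detected genes as a covariate (4.58%). With limma-voom it was 2 (50%), and with 1 library left out 0 to 2. For genotype in sham it went from 0 to 2 with limma-voom (16.2% of all genes). For RU521 it went from 1 to 2 with DESeq2 (18.5% of all genes) and with limma-voom (33.4%), and was 1 to 2 with 1 library left out. Without wild-type sham replicates 1 and 3 the RU521 value of Iigp1 was -0.64. In retinal cells, knockout against wild type with PBS went from 0 to 2 without a filter (0.101% of all genes). It was 3 with DESeq2 (4.2%), 1 with the covariate (0.0445%) and 0 to 1 with 1 library left out. The knockout given IFNγ, set against PBS wild type, went from 0 to 1 without a filter (0.0529%) and 3 with DESeq2 (2.72%). By DESeq2, IFNγ in wild type gave 1 (1.59%) and knockout against wild type with IFNγ gave 3 (1.75%). The causes were not tested.

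Direction changed for injury in wild type with the covariate (Irgm1 -0.030, Iigp1 -0.31, Tgtp1 -0.040) and without sham replicates 1 and 3 (Iigp1 -0.25, Tgtp1 -0.016), which also gave -0.25 for Tgtp1 in the sham comparison. For IFNγ in the retinal knockout limma-voom gave 0.56 for Igtp and 0.38 for Irgm1. With 1 library left out, ranges were -0.092 to 0.35 for Iigp1 (injury in wild type) and -0.79 to 7.33 for Igtp (IFNγ in wild type). For IFNγ in knockout they were -0.65 to 0.60 for Igtp, -0.87 to 0.89 for Irgm1, -1.82 to 0.12 for Irgm2, -3.80 to 10.61 for Iigp1 and -1.49 to 9.48 for Tgtp1. Libraries with the same replicate number did not deviate together (correlations -0.17 to 0.36 in ganglia, -0.03 to 0.07 in retinal cells), so the numbers were not taken as pairs; a replicate block left every count of calls the same and changed only the direction of Irgm1 for IFNγ in the retinal knockout, to 0.21. Counting error weighs most on Tgtp2 in ganglia outside injured knockout and on the 4 effectors in retinal cells, where most libraries held under 3 counts of each.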

Other observations

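Genes beside the IRG genes were looked at after the values were seen. Within 200 kb of the 7 genes, 22 tested ganglion genes carry no IRG family symbol. For knockout against wild type after injury 1 of these was called higher and 0 lower: BC023105, on chromosome 18 near Iigp1, at 3.73 ± 0.56 (edgeR adjusted p = 0.00128). Of all genes 2.2% were called in that comparison. The median of the 22 genes was 0.01. In the same windows 12 of the 15 IRG family symbols were called higher, with a median of 3.58. The 15 include the 7 genes themselves, so this count repeats calls given above and is no separate evidence. With injury in knockout, 3 of the 22 genes were called higher and 1 lower, where 10.9% of all genes were called. BC023105 (3.89 ± 0.57), Smim3 (1.86 ± 0.24) and 4930438A08Rik (1.90 ± 0.51) rose and Sh3bp5l fell (-0.64 ± 0.18). Of the 15 IRG symbols, again with the 7 genes among them, 14 rose. Smim3 (2.00 ± 0.25) and 4930438A08Rik (2.91 ± 0.52) also rose with injury in wild type, and Larp1 (-1.04 ± 0.23) and Mrpl22 (-0.38 ± 0.12) fell. These were 2 of the 22 genes in each direction, where 16.6% of all genes were called.

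In retinal cells edgeR called 3 genes for knockout against wild type with PBS, Oasl2 and the immunoproteasome subunit Psmb9 higher and Heg1 lower. For the knockout given IFNγ, set against PBS wild type, it called 7, of which Oasl2, Psmb9, Gbp6, Tap1, B2m and Camk2a were higher and Rpl5 lower. Tap1 (7.40) and B2m (4.10) encode parts of the MHC class I pathway. These were named because they are all the genes called.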
